A study of Mus musculus and Rattus norvegicus with 37 samples.

Results

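The genes described here encode 10 proteins that bind fatty acids or bring them into cells: the cytosolic fatty acid binding proteins Fabp1, Fabp2, Fabp4, Fabp5 and Fabp7, the membrane receptor Cd36, and the fatty acid transport proteins Slc27a1, Slc27a2, Slc27a4 and Slc27a5. They were chosen by name in the liver RNA-seq tables, out of 47929 named mouse genes and 28026 named rat genes, and each of the 10 names was found in all 4 tables. The data cover 37 livers, of which 21 came from mice and 16 from rats.

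Saline was given to 5 WT/Floxed mice and LNA29 to 8. Of the mice labelled L-Sirt1 KO, 4 had saline and 4 had LNA29. LNA29 is a mixture of locked nucleic acids that bind and block miR-29a, miR-29b and miR-29c, given as 1 injection of 20 mg/kg of each inhibitor, and livers were taken on day 7. All mice were female, fed chow and on the C57BL/6J background. The WT/Floxed mice pooled wild type animals aged 9 to 11 weeks (4 with LNA29, 3 with saline) and animals with a floxed Sirt1 allele aged 15 to 20 weeks (4 with LNA29, 2 with saline), so genotype and age cannot be told apart within that group. The L-Sirt1 KO mice, of the same age as the floxed littermates, were described as lacking Sirt1 in the liver. Gene-level Sirt1 values were 534.6 to 616.5 normalized counts in the mice labelled L-Sirt1 KO and 492.7 to 699.1 in WT/Floxed mice. A gene-level value also counts exons outside a floxed part, so it did not check the deletion. The rats were male. Zucker fatty rats (ZFR), which carry the fa leptin receptor mutation on both alleles, and Zucker lean rats (ZLR) were 5.5 months old (n = 4 each). A separate set of ZFR, 3 months old, received vehicle or BT2 for 1 week (n = 4 each). BT2 inhibits the kinase that restrains breakdown of branched-chain keto acids and was given at 20 mg/kg.

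Long-chain fatty acids reach hepatocytes bound to albumin, cross the membrane with the help of Cd36 and Slc27a proteins, and are then activated to acyl-CoA or carried by Fabp proteins in the cytosol. Fabp1 is the main binding protein of hepatocytes, Slc27a2 and Slc27a5 are transport proteins with acyl-CoA synthetase activity that are typical of liver, and Slc27a5 also activates bile acids. Fabp4 is typical of adipocytes, endothelial cells and macrophages, and Cd36, Fabp1 and Fabp4 are well-known targets of the peroxisome proliferator-activated receptors (PPARs). Fabp7 is named for brain, where it binds polyunsaturated fatty acids in glia, and its liver transcript is known to cycle over the day.

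The 3 mature miR-29 sequences are shown because LNA29 was made to bind them, with the seed (bases 2 to 8) in capitals, from RefSeq:

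mmu-miR-29a-3p: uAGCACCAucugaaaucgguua

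mmu-miR-29b-3p: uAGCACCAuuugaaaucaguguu

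mmu-miR-29c-3p: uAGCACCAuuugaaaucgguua

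The seeds were identical, and the DNA letters that pair with them are TGGTGCT. In the mouse annotation (GENCODE M21, GRCm38), 0 of the 10 members held these letters in an annotated 3′ UTR, against 2857 of 20971 protein-coding genes (13.6%). The longest annotated 3′ UTR of a member ran from 69 bases (Fabp1) to 1789 bases (Slc27a4).

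The promoters were searched for the nuclear receptor half-site AGGTCA on both strands, since PPARs and related receptors bind arrangements of it. RefSeq promoters (GRCm38.p6) were found for 7 of the 10 members, and the window was the 250 bases before the start. The following stretches hold the half-site (TGACCT when read on the other strand) in capitals:

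Fabp1, chr6:71199800-71199829, + strand: atcgacaatcacTGACCTatggcctatatc

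Fabp1, chr6:71199858-71199878, + strand: ggcaacagtgggTGACCTggc

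Fabp7, chr10:57784740-57784769, + strand: ctgggaggatctTGACCTactccgctaacc

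Cd36, chr5:17836107-17836136, - strand: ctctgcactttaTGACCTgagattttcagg

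Slc27a2, chr2:126552792-126552821, + strand: gcaccacgccttTGACCTtttcaacgtggg

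The half-site began at position -67 and at position -9 from the RefSeq start in Fabp1, at -171 in Fabp7, at -228 in Cd36 and at -220 in Slc27a2. It occurred in 14.0% of the 32851 promoter windows. A direct repeat of it spaced by 1 base (AGGTCANAGGTCA), which covers only the exact letters, was in 0.0335% of windows and in 0 members. The E-box CACGTG, the site of the clock factor pair Clock and Arntl, was in 6.02% of windows and, among members, in 1 of the Slc27a1 promoters. The GENCODE gene starts of Fabp1, Slc27a2 and Cd36 lie upstream of these RefSeq starts. The second Fabp1 stretch and the Slc27a2 stretch were therefore inside an annotated GENCODE exon, the last 3 bases of the first Fabp1 stretch also, and the Cd36 stretch was inside the gene span but in no exon of a coding transcript. A match is a description of letters and not a measured site.

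Per exon length, Fabp1 (chr6:71199827-71205023) was the most abundant member in mouse liver. Its level was 311000 normalized counts per kb in WT/Floxed saline mice, followed by Slc27a5 with 29300 and Slc27a2 with 20700. Fabp2 (3220 per kb), Fabp5 (2870 per kb) and Cd36 (1400 per kb) formed a middle range. Slc27a4 (555 per kb), Fabp4 (415 per kb), Slc27a1 (193 per kb) and Fabp7 (156 per kb) were lowest. Fabp2 lies at chr3:122895072-122899506, Fabp7 at chr10:57784881-57788450, Cd36 at chr5:17781690-17888801 and Slc27a5 at chr7:12988346-12998192 (GRCm38). In L-Sirt1 KO saline mice, Fabp5 (5940 per kb) stood above Fabp2 (1860 per kb). The 2 mouse tables were normalized separately, so levels were compared between genes within a table.

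**Figure D1:**
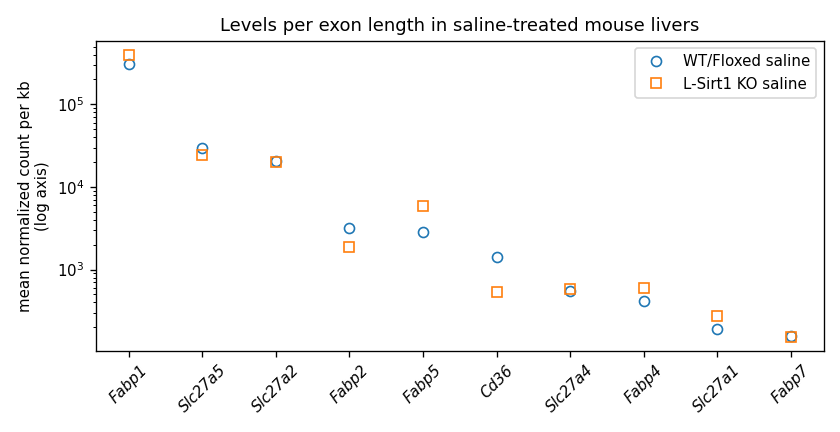
Mean normalized count per kb of exon (log axis) of the 10 members in saline-treated WT/Floxed (circles, n = 5) and L-Sirt1 KO (squares, n = 4) mouse livers, ordered by WT/Floxed level. Fabp1 lies at 311000 per kb and Fabp7 at 156 per kb in WT/Floxed livers.

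Estimated depth, in mega-reads (M reads), was 42.6 to 78.0 M reads per mouse library. It was 0.188 to 58.5 M reads in the ZFR and ZLR table and 0.193 to 8.96 M reads in the BT2 table, with 2 libraries under 0.5 M reads in each rat table. In the shallowest rat library 1 read was worth 10.5 normalized counts. All groups were bulk liver, so fewer cells of a type and less RNA per cell cannot be told apart.

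In WT/Floxed mice, none of the 10 members passed the criteria of the study (p under 0.05, adjusted p under 0.2, mean above 50 and fold change above 1.2) after LNA29, and 3 had an unadjusted limma p under 0.05, beside 2105 of all 15811 genes tested. Among all these genes, 2.42% were called higher and 1.93% lower. Log2 differences of the members ran from -0.56 to 0.55, 5 positive and 5 negative, with a median of 0.07, beside 0.0017 over all genes.

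Among the binding proteins, Fabp1 ranged from 149400 to 258400 normalized counts with a median of 185200 after LNA29, and from 144300 to 194700 with a median of 181100 after saline. The groups overlapped over most of their range, and the log2 difference was 0.17 (SE 0.12, limma adjusted p = 0.607). Fabp2, the intestinal-type binding protein, ranged from 1766 to 4388 (median 2588) after LNA29 and from 2337 to 3825 (median 3032) after saline. The 3 lowest Fabp2 values after LNA29, 1766, 2050 and 2082, all came from floxed mice, and the log2 difference was -0.26 (SE 0.18, limma adjusted p = 0.607).

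Fabp5, the epidermal-type binding protein, ranged from 1761 to 8097 (median 4439) after LNA29 and from 1352 to 4221 (median 2901) after saline. The log2 difference was 0.55 (SE 0.36, limma adjusted p = 0.567). It was 0.15 within wild type mice (4 LNA29, 3 saline) and 0.92 within floxed mice (4 LNA29, 2 saline). Within the 3 sequencing runs named in the labels it was -0.06 (3 LNA29, 1 saline), -0.36 (3 and 2) and 2.01 (2 and 2). Differences between backgrounds or runs were not tested. In the annotation, 9.01% of Fabp5 windows of read length were shared with Gm14328 or Gm6166, whose values reached 27.5 and 321.5 normalized counts, so reads could be split between them.

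Fabp7 ranged from 72.7 to 214.0 (median 132.1) after LNA29 and from 150.5 to 268.5 (median 173.2) after saline. Of 8 LNA29 livers, 6 lay below the lowest saline liver, and the log2 difference was -0.56 (SE 0.25, limma adjusted p = 0.355; two-sided exact permutation p = 0.0692). Fabp4 ranged from 278.0 to 574.4 (median 347.7) after LNA29 and from 319.7 to 401.3 (median 379.9) after saline, with a log2 difference of -0.01 (SE 0.15, limma adjusted p = 0.981). The groups of both genes overlapped.

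Cd36 ranged from 2280 to 7163 (median 3516) after LNA29 and from 3883 to 6152 (median 4442) after saline, and the log2 difference was -0.36 (SE 0.27, limma adjusted p = 0.642). The 4 floxed LNA29 livers had values from 2280 to 3463, below each of the 5 saline livers. Within floxed mice the log2 difference was -0.68 (means 2704 and 4288), and within wild type mice it was 0.03 (means 5564 and 5378). The difference between the backgrounds was not tested.

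Among the transport proteins, Slc27a5 was the member with the lowest p. It ranged from 48240 to 69280 (median 57520) after LNA29 and from 57560 to 77950 (median 69040) after saline. Only the highest LNA29 liver lay above the saline median, and the log2 difference was -0.24 (SE 0.088, unadjusted limma p = 0.016, adjusted p = 0.237; two-sided exact permutation p = 0.0272). Slc27a5 met all criteria with sample quality weights (adjusted p = 0.0652), without LNA29 replicate 1 (0.106) and without saline replicate 2 (0.153), while its adjusted p ran from 0.0652 to 0.889 over 8 other settings.

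Slc27a4, a transport protein of wide tissue range, was tight: 2377 to 2702 (median 2496) after LNA29 and 1950 to 2622 (median 2235) after saline. Its log2 difference was 0.16 (SE 0.070, limma adjusted p = 0.345; two-sided exact permutation p = 0.0218), a fitted fold of 1.12. Slc27a1 (402.0 to 1115 after LNA29, 467.2 to 628.8 after saline) and Slc27a2 (56830 to 113100 after LNA29, 47690 to 70860 after saline) overlapped, with log2 differences of 0.16 (SE 0.20) and 0.27 (SE 0.15) and limma adjusted p of 0.798 and 0.502. No member had groups that did not overlap, while 1.51% of all genes tested had.

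In the mice labelled L-Sirt1 KO, Fabp2 was the 1 member of 10 that passed the criteria, and it was lower after LNA29. Over the 15885 genes tested, 1.19% were called higher and 0.68% lower. Log2 differences were negative in 9 of 10 members, beside 8019 of the 15885 genes tested, with medians of -0.29 and -0.0027. Of these 9, Fabp4 (-0.008, SE 0.35) and Slc27a5 (-0.0040, SE 0.092) lay near 0 and changed sign in some fits without 1 library. Unadjusted limma p was under 0.05 for 2 members and for 1779 of the genes tested.

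Fabp2 had 1084, 1208, 1260 and 1027 normalized counts in the 4 LNA29 livers and 1586, 2202, 1432 and 1962 in the 4 saline livers. The groups did not overlap, and the ratio of means was 0.638. The log2 difference was -0.63 (SE 0.14, limma adjusted p = 0.139; exact permutation p = 0.0286, the smallest that 4 against 4 can give). The call was lost in 5 of the 8 fits without 1 library: without LNA29 replicate 2, 3 or 4 (adjusted p = 0.275, 0.240 and 0.320) and without saline replicate 2 or 4 (0.228 and 0.2999). The annotated antisense gene 4933405D12Rik spans the whole of Fabp2 on the opposite strand. It was listed at 0 to 9.35 normalized counts in the mouse livers, and whether counting used strand is not given in the sources used here.

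Fabp1 had 144257, 165313, 143127 and 139190 normalized counts after LNA29 and 190637, 252646, 169683 and 269149 after saline. Here too the groups did not overlap, by 165313 against 169683. The ratio of means was 0.671 and the log2 difference -0.55 (SE 0.15, limma adjusted p = 0.211; exact permutation p = 0.0286), so Fabp1 missed the criterion on the adjusted p. It met all criteria with sample quality weights (adjusted p = 0.0794), without saline replicate 3 (0.110) and without saline replicate 1 (0.192). Over 7 other settings the adjusted p ran from 0.0794 to 0.386 for Fabp1 and from 0.0548 to 0.215 for Fabp2. Groups that do not overlap were found for 2 of 10 members and for 6.95% of all genes tested.

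The other members gave no call. Fabp5 had 1814, 4429, 5734 and 2068 after LNA29 and 6492, 8059, 2780 and 6136 after saline, with a log2 difference of -0.81 (SE 0.42, limma adjusted p = 0.529). Of the 4 saline livers, 3 lay above every LNA29 liver and the other, at 2780, lay among them. Fabp7 had 169.5, 149.3, 148.9 and 147.5 after LNA29 and 214.3, 180.6, 216.2 and 157.2 after saline (log2 difference -0.31, SE 0.14, limma adjusted p = 0.462).

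Fabp4 had 622.0, 455.6, 455.3 and 373.1 after LNA29 and 424.3, 290.3, 378.4 and 1057 after saline (log2 difference -0.01, SE 0.35, limma adjusted p = 0.995). The saline liver at 1057 also had the highest summed level of 6 adipocyte markers, 1274 normalized counts with 0 markers at 0, against 25.0 to 111.9 in the other 3 saline livers. The part of adipocyte RNA in the Fabp4 values was not tested.

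Cd36 had 2275, 1507, 1586 and 1398 after LNA29 and 2179, 1429, 2049 and 1954 after saline (log2 difference -0.18, SE 0.18, limma adjusted p = 0.751). Slc27a1 (-0.39, SE 0.18) and Slc27a2 (-0.28, SE 0.20) had negative log2 differences that did not pass (limma adjusted p = 0.465 and 0.656). The saline livers with the highest Fabp1, replicates 2 and 4, were also those with the highest Slc27a2, at 66489 and 81225, against 40620 and 44503 in the other 2. Slc27a4 and Slc27a5 had log2 differences of 0.02 (SE 0.100) and -0.0040 (SE 0.092), with Slc27a5 at 51300 to 61640 after LNA29 and 52500 to 62850 after saline.

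Clock genes and markers of other cells were read in the same livers. Of 12 clock genes, 0 were called and 6 had an unadjusted limma p under 0.05. Dbp was at 48.5 to 86.6 after LNA29 and at 217.1, 146.1, 7449 and 480.3 after saline. The value of 7449 came from saline replicate 3, which also had the lowest Arntl (382.5) and Npas2 (102.0). Of 7 macrophage markers, 2 were called lower, Clec4f (log2 difference -0.29) and Vsig4 (-0.54). The summed level was 12790 to 15990 after LNA29 and 15910 to 19140 after saline. Of the 7 log2 differences 1 was positive, Marco (0.71), and 6 were negative. WT/Floxed mice also had 1 positive and 6 negative, with 0 called. Of 6 endothelial markers in the KO mice, 1 was called lower, Lyve1 (-1.17), while 3 log2 differences were positive and 3 negative. Their summed level was 9851 to 10880 after LNA29 and 9906 to 11490 after saline. The summed level of 6 hepatocyte markers was 6070000 to 7044000 after LNA29 and 5105000 to 6492000 after saline. Most of this sum was Alb (means 5070000 and 4366000). Of the 6 hepatocyte markers, 2 had positive and 4 negative log2 differences, and 0 were called. Cyp2e1 was lower with groups that did not overlap (-0.27, limma adjusted p = 0.332). The part of any of these in the Fabp1 and Fabp2 values was not tested.

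**Figure D2:**
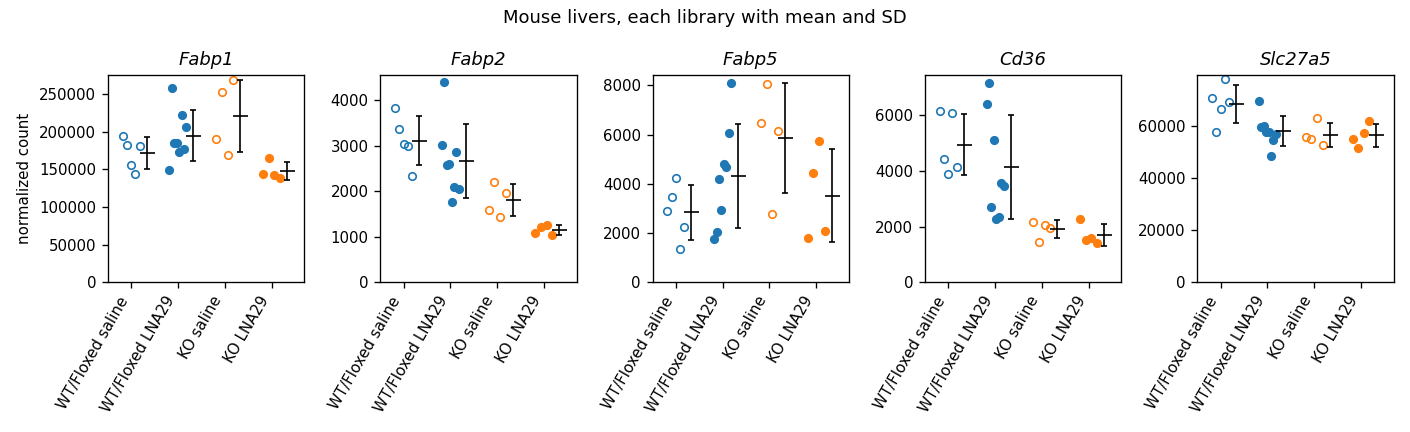
Normalized counts (linear axes from 0) of 5 members in each mouse liver, by group, with the mean and SD as bars; open circles are saline and filled circles LNA29, and the WT/Floxed and KO tables were normalized separately. For Fabp1 and Fabp2 the KO saline and KO LNA29 livers do not overlap, while the WT/Floxed groups do.

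The difference of the LNA29 response between the genotypes (KO response minus WT/Floxed response) was tested directly, and 0 of 10 members passed at an adjusted p under 0.2, beside 0.0449% of 15601 genes. The WT/Floxed group held younger wild type mice beside floxed mice of the same age as the KO mice. Age and line were therefore mixed with Sirt1 genotype in this test. An unadjusted limma p under 0.05 was found for 2 members and for 1426 of the genes tested. Fabp1 had a difference of responses of -0.72 on the log2 scale (SE 0.20, unadjusted p = 0.0017, limma adjusted p = 0.267), from 0.17 in WT/Floxed mice to -0.55 in KO mice. Fabp5 had -1.35 (SE 0.60, unadjusted p = 0.035, limma adjusted p = 0.496). For Fabp2, called in KO mice and not in WT/Floxed mice, the difference was -0.38 (SE 0.27, limma adjusted p = 0.718), so its responses were not shown to differ. With sample quality weights 4 members passed, beside 1220 of the 15601 genes tested. These members were Fabp1, Fabp5, Slc27a2 and Slc27a5 (limma adjusted p = 0.0562, 0.160, 0.171 and 0.168). Fabp1 also passed without WT/Floxed LNA29 replicate 1 (0.144) or without KO saline replicate 3 (0.114).

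In rats, 4 members differed between ZFR and ZLR livers: Cd36 and Fabp5 were higher in ZFR, and Fabp7 and Slc27a5 were lower. The rule was a limma adjusted p under 0.05, which called 1.8% of 8633 genes higher and 2.46% lower. Of the 10 members 9 were tested, since Fabp2 lay below the minimum mean of 10 normalized counts. Fabp4 passed this minimum through the ZFR livers alone (means of 27.5 in ZFR and 7.94 in ZLR) and was not called, and the 4 members called had means above 10 in both groups.

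Fabp7 had the lowest p and the widest separation. It had 200.7, 239.1, 305.5 and 250.6 normalized counts in the 4 ZLR livers and 13.4, 7.06, 14.6 and 35.8 in the 4 ZFR livers. The values of ZFR replicates 2, 3 and 4 rested on about 6, 7 and 23 reads. Those of ZLR replicates 3 and 4 rested on about 29 and 24 reads. The groups were far apart, with the highest ZFR value below the lowest ZLR value by more than the range within either group. The mean was 14.1 times lower in ZFR (log2 difference -3.94, SE 0.39, limma adjusted p = 0.000568; exact permutation p = 0.0286, the smallest possible). The log2 difference was -4.35 and -3.53 within the 2 sequencing runs, and -3.78 without the 2 ZLR libraries under 0.5 M reads (limma adjusted p = 0.0031).

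Clock genes moved in the same livers. Of 11 clock genes tested 6 were called: Dbp, Per3, Per2 and Tef were higher and Arntl and Npas2 lower in ZFR. Of these, Dbp and Per3 passed the minimum mean of 10 through the ZFR livers alone (ZLR means of 9.987 and 3.467). Npas2 passed it through the ZLR livers alone (means of 3.078 in ZFR and 40.04 in ZLR). Dbp, a clock output factor, had 4.55, 28.0, 7.37 and 0 in ZLR livers and 109.0, 265.4, 271.8 and 181.2 in ZFR livers. Arntl (Bmal1), a core activator of the clock, had 60.9, 43.4, 63.2 and 83.5 in ZLR and 24.5, 8.24, 4.18 and 12.4 in ZFR. The part of clock phase or collection time in the Fabp7 difference was not tested.

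Cd36 had 100.9, 59.6, 111.8 and 92.1 normalized counts in ZLR and 375.6, 275.2, 223.2 and 322.0 in ZFR. The groups did not overlap, and the mean was 3.28 times higher in ZFR (log2 difference 1.72, SE 0.22, limma adjusted p = 0.0025). It was 2.04 and 1.39 within the 2 runs. In the 2 shallow ZLR livers Cd36 rested on about 10.6 and 8.82 reads, and without them the log2 difference was 1.91 (limma adjusted p = 0.0034).

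Fabp5 had 49.0, 65.1, 63.2 and 31.3 in ZLR and 265.5, 160.0, 181.8 and 121.3 in ZFR. Again the groups did not overlap, and the mean was 3.49 times higher in ZFR (log2 difference 1.78, SE 0.29, limma adjusted p = 0.0076). It was 1.85 and 1.71 within runs. The values of ZLR replicates 3 and 4 rested on about 6 and 3 reads, and without these livers the log2 difference was 1.62 (limma adjusted p = 0.011).

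Slc27a5 had 1943, 1103, 895.4 and 835.4 in ZLR and 712.2, 487.1, 359.3 and 500.9 in ZFR. The groups did not overlap, and the ratio of means was 0.431 (log2 difference -1.17, SE 0.28, limma adjusted p = 0.0483). This call was close to the threshold: the adjusted p was above 0.05 in 6 of the 8 fits without 1 library (without ZLR replicates 1, 2 or 3, and ZFR replicates 2, 3 or 4), with values from 0.0518 to 0.145. It was also lost with TMM scaling (0.107) and with no minimum mean (0.146), and ran from 0.0067 to 0.146 over 8 other settings.

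Fabp1 had 4920, 6299, 5520 and 4678 in ZLR and 4049, 3060, 3742 and 4172 in ZFR. The groups did not overlap, and the ratio of means was 0.702, but the limma adjusted p was 0.0579 (log2 difference -0.51, SE 0.13), so Fabp1 was not called. It passed with a pseudocount of 10 (adjusted p = 0.0438), with sample quality weights (0.0050) and, at the same adjusted p of 0.0579, under the criteria used for the mice. The adjusted p was within a range of 0.0050 to 0.190 over 8 other settings. Among the 9 members tested, 5 had groups that did not overlap, beside 14.5% of all genes tested.

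Fabp4 was listed at 31.2, 0.585, 0 and 0 in ZLR and at 13.8, 65.2, 13.5 and 17.3 in ZFR. The spread was wide within each group, the log2 difference of 3.08 (SE 1.21) did not pass (limma adjusted p = 0.229), and the ZLR livers at 0 were the 2 shallow ones. The log2 difference was 1.18 with a pseudocount of 10 and 1.66 without the shallow libraries, and the ratio of means was 3.46. Slc27a2 was at 1993 to 2559 in ZLR and 1951 to 2296 in ZFR (log2 difference -0.06, SE 0.10, limma adjusted p = 0.790). Slc27a1 (26.5 to 52.2 in ZLR, 25.9 to 29.6 in ZFR) and Slc27a4 (0 to 31.3 in ZLR, 14.8 to 18.8 in ZFR) also overlapped, with limma adjusted p of 0.440 and 0.691. Fabp2 lay at 0 to 21.1 in ZLR and 4.18 to 14.1 in ZFR.

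Genes that act beside the members in fatty acid activation and binding were read from a list of 20, of which 10 were tested. Of these, 1 was called higher, Dbi, the acyl-CoA binding protein (mean 1292 in ZFR and 917.8 in ZLR, log2 difference 0.49), and 2 lower, the acyl-CoA synthetases Acsl1 (3064 and 4269, -0.47) and Acsl4 (255.1 and 503.6, -0.97). Of 12 nuclear receptors and partners, 10 were tested and 1 was called, Nr1i3, the receptor CAR, which was lower (10.6 in ZFR and 35.6 in ZLR). Ppara, the main PPAR of liver, had means of 32.17 and 36.98 and was not called (limma adjusted p = 0.695). Endothelial cells and macrophages also express Cd36 and Fabp5. The summed level of 5 endothelial markers was 333.8 to 372.1 in ZLR and 305.6 to 438.5 in ZFR, with Stab2 called higher. Among these endothelial markers 3 log2 differences were positive and 2 negative. That of 7 macrophage markers summed was 459.1 to 663.7 in ZLR and 507.7 to 846.1 in ZFR. Among the macrophage markers 0 were called, and 5 log2 differences were positive and 2 negative. The groups did not overlap for 1 of these 7, Marco (6.13 to 41.8 in ZLR, 54.3 to 111.7 in ZFR, limma adjusted p = 0.0664). They also did not overlap for 2 of 5 endothelial and 2 of 5 stellate cell markers tested, beside 14.5% of all genes tested. The summed level of 6 stellate cell markers was 121.1 to 190.1 in ZLR and 188.5 to 290.0 in ZFR, with 0 called.

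Of 6 hepatocyte markers, read beside Slc27a5 and Fabp1, 2 were called lower in ZFR, Apob (log2 difference -0.39) and Ttr (-0.43), and Cyp2e1 had groups that did not overlap (-0.97, limma adjusted p = 0.0802). Their summed level was 219400 to 287500 in ZLR and 173100 to 264300 in ZFR. The part of any of these markers in the differences of the members was not tested.

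**Figure D3:**
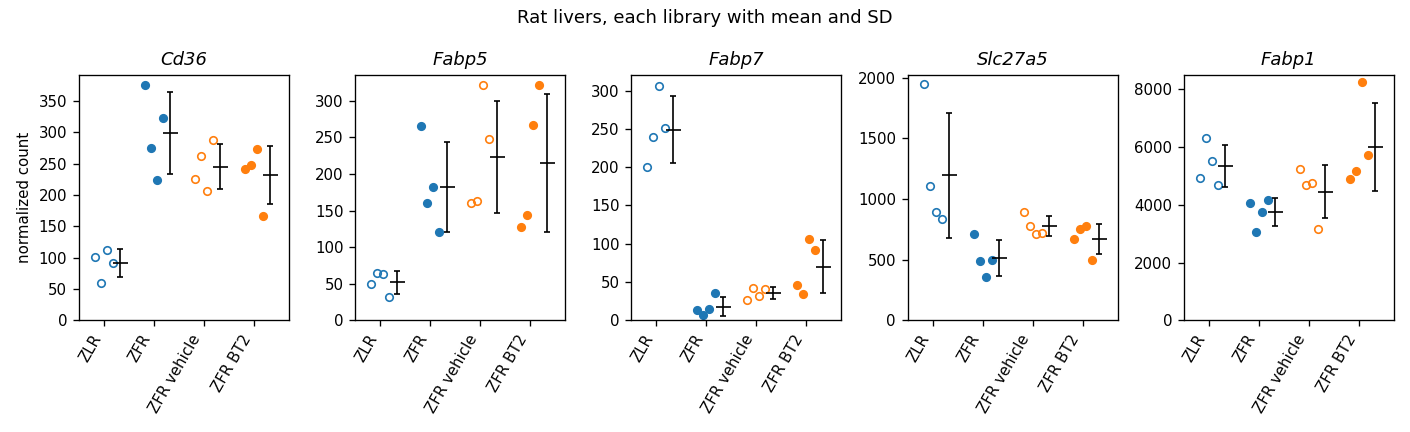
Normalized counts (linear axes from 0) of 5 members in each rat liver, by group, with the mean and SD as bars; blue circles are the ZLR (open) and ZFR (filled) table and orange circles the vehicle (open) and BT2 (filled) table, normalized separately. ZFR and ZLR values do not overlap in any of the 5 panels, and the vehicle and BT2 values overlap in each.

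No member passed the test between BT2 and vehicle at this depth. Of 8 members tested (Fabp2 and Fabp4 lay below the minimum mean), limma called 0, beside 0% of 8405 genes called higher and 0% called lower. An unadjusted limma p under 0.05 was found for 1 member and for 332 genes. Groups that did not overlap were found for 0 members and for 2.96% of all genes tested.

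Fabp7 had 26.8, 42.3, 31.2 and 41.3 normalized counts with vehicle and 46.3, 34.7, 105.8 and 92.5 with BT2. Of the BT2 livers, 1 lay within the vehicle range and the other 3 above it. The log2 difference was 0.84 (SE 0.35, limma adjusted p = 0.898; exact permutation p = 0.114), and it was 0.24 in 1 sequencing run and 1.44 in the other. Of 11 clock genes tested 0 were called, and 2, Dbp and Arntl, had an unadjusted limma p under 0.05. Dbp was 55.2, 117.1, 315.7 and 311.5 with vehicle and 62.8, 73.2, 34.1 and 7.61 with BT2 (limma adjusted p = 0.898), and Arntl had means of 24.9 and 53.7 (limma adjusted p = 0.898). The part of the clock in the Fabp7 values was not tested.

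Fabp1 had 5259, 4686, 4748 and 3149 with vehicle and 4886, 5157, 8246 and 5721 with BT2 (log2 difference 0.42, SE 0.20, limma adjusted p = 0.898). The lowest value belonged to a vehicle liver under 0.5 M reads and the highest to BT2 replicate 3. Within runs the log2 difference was 0.016 and 0.83.

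Cd36 had 225.8, 262.5, 205.8 and 286.7 with vehicle and 241.5, 247.7, 273.8 and 166.2 with BT2, and the log2 difference was -0.09 (SE 0.18). Fabp5 had 160.2, 162.8, 320.9 and 247.8 with vehicle and 128.1, 144.2, 266.4 and 320.9 with BT2 (-0.10, SE 0.32). In both groups replicates 1 and 2, sequenced in the same run, had lower Fabp5 values than replicates 3 and 4. The vehicle and BT2 values of both genes overlapped.

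Slc27a5 had 888.8, 778.4, 708.7 and 722.7 with vehicle and 669.0, 750.2, 773.9 and 500.3 with BT2 (log2 difference -0.22, SE 0.15). Slc27a2 had 1458 to 1976 with vehicle and 1942 to 2128 with BT2 (0.21, SE 0.12). Slc27a1 and Slc27a4 had log2 differences of -0.47 (SE 0.45) and -0.21 (SE 0.52), and their lowest library values rested on about 5 and 1 reads. The limma adjusted p of the 8 members lay between 0.898 and 0.972.

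**Figure D4:**
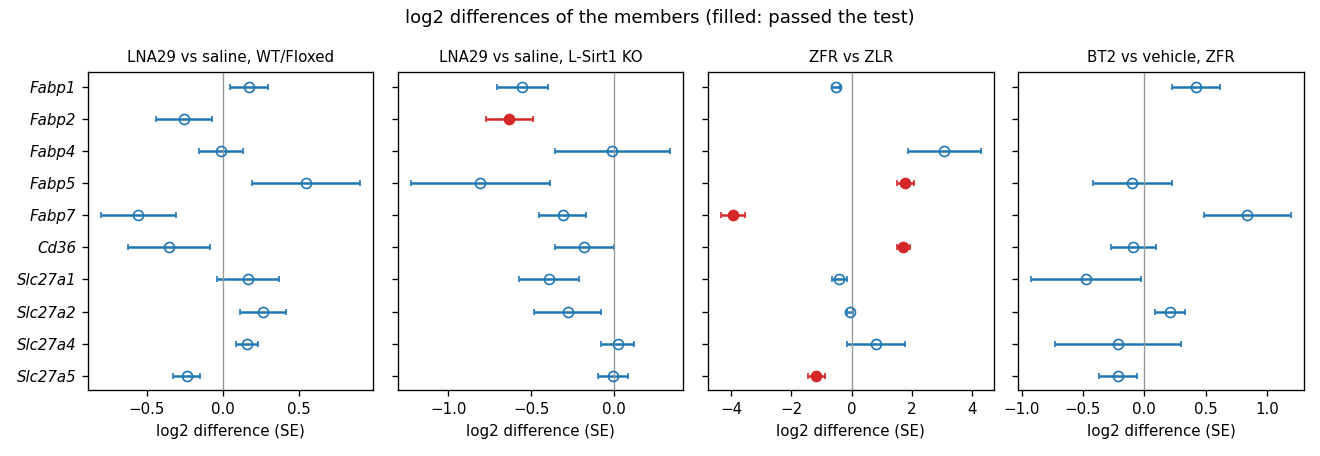
Log2 differences with SE (bars) of the members tested in each of the 4 comparisons; filled red points passed the rule of their comparison and the horizontal ranges differ between panels. In the L-Sirt1 KO mice 1 member passed (Fabp2), and 4 passed between ZFR and ZLR (Fabp5, Fabp7, Cd36, Slc27a5).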

How the data were processed

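Poly(A) RNA-seq (100 bp single-end reads) was aligned by the authors with STAR to mm10 or rn6, quantified with Salmon and normalized with DESeq2. The deposited values are this signal, normalized counts per gene, in 4 tables scaled separately. Whole reads could be recovered for only part of the values. For this reason limma 3.58.1 (R 4.3.3, lmFit, eBayes with trend) was run on log2(value + 1) for genes with a mean of at least 10. Benjamini-Hochberg adjustment was made over all genes tested. Log2 differences are on the log2(value + 1) scale, which for low genes can lie far from the log2 ratio of means. Two-sided exact permutation tests were run per member. Depth was estimated as the table sum over the value of 1 read. Each label names its own animal, so replicates were taken as separate animals. Rows without a gene name (381 mouse, 201 rat) and repeated names were left out. The members, the other lists and the markers were chosen with earlier results of these data known. Named genes were the members, and list genes that passed a comparison. The list genes Ppara, Marco, Cyp2e1 and Alb were named outside this rule, as they passed no comparison. List genes called but not described above were Apoa1 (log2 difference 0.51), Tat (-0.48) and Lyve1 (-0.51) in WT/Floxed mice. Dbi was also called lower in KO mice (-0.32), and Apoa4 was called higher in ZFR than in ZLR (0.75). Marker lists held 5 to 7 genes. The fits were tested on simulated data. The authors had left 1 floxed saline sample out.

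The other settings tried were no minimum mean, a pseudocount of 10, TMM scaling, sample quality weights, run or background covariates, a replicate block, another call rule, leaving out each library and, chosen after seeing the data, leaving out libraries under 0.5 M reads. Same-numbered samples did not deviate together (correlations -0.281 to 0.241 over 5 WT/Floxed pairs), so numbers were not used as pairs.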

Additional observations from a re-analysis of the deposited data

Results flagged for a closer look

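Of 80 groups of member values checked, 7 held a library far from the rest by Dixon's ratio, and chance flags about 1 in 20 groups. In WT/Floxed LNA29 livers, replicate 2 was the highest for Fabp2 (4388, next 3008) and for Slc27a2 (113122, next 79220). In WT/Floxed saline livers, replicate 3 was the lowest for Fabp4 (319.7, next 379.6). In L-Sirt1 KO LNA29 livers, replicate 1 was the highest for Fabp7 (169.5, next 149.3). Fabp4 was highest in ZLR replicate 1 (31.2, next 0.585) and in ZFR replicate 2 (65.2, next 17.3). Slc27a1 was highest in ZFR vehicle replicate 4 (92.9, next 37.8), where the value rested on about 9 reads.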

How the results depend on the processing

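Across 8 to 21 fits without 1 library per comparison, and the other settings, Cd36, Fabp5 and Fabp7 kept their direction and call between ZFR and ZLR. Members called ran from 0 to 1 (WT/Floxed), 0 to 2 (KO), 3 to 4 (ZFR vs ZLR), 0 to 0 (BT2) and 0 to 1 (difference between genotypes) without 1 library, and genes called from 381 to 1006, 77 to 426, 225 to 379, 0 to 2 and 0 to 233. Sample quality weights called 1, 2 and 4 members in WT/Floxed mice, KO mice and the difference, and 1308 (WT/Floxed), 804 (KO), 1169 (ZFR vs ZLR), 1 (BT2) and 1220 (difference) genes. With no minimum mean 396 (WT/Floxed), 160 (KO) and 241 (ZFR vs ZLR) genes were called. Another call rule, with the mouse and rat criteria exchanged, called 216, 39, 707 and 1 genes, and 0 members in KO mice. The replicate block gave 56, 145 and 221 genes in WT/Floxed mice, KO mice and ZFR vs ZLR, and 0 members in KO mice (Fabp2 adjusted p = 0.215); the numbers mark no known pairs, and other members' calls did not change. With sequencing run as a covariate 103 (KO) and 19 (difference) genes were called. A pseudocount of 10, and leaving out shallow libraries, each called 1 gene for BT2. Signs turned only in differences that passed no test. Fabp4 in WT/Floxed mice was 0.0412 with the replicate block, 0.00644 with background as covariate and -0.105 to 0.0442 without 1 library. In KO mice Fabp4 was 0.0191 with run as covariate and -0.24 to 0.38 without 1 library, Slc27a5 was 0.0447 with weights, 0.0296 with run and -0.0489 to 0.0490 without 1 library, and Slc27a4 was -0.0381 to 0.0792. For the difference, Fabp4 was -0.20 with weights, -0.0267 with run and -0.23 to 0.39 without 1 library. Between ZFR and ZLR, Slc27a4 was -0.0465 with weights, -0.013 without shallow libraries and -0.30 to 1.37 without 1 library, and Slc27a2 -0.110 to 0.0107. For BT2, Cd36 was 0.14 without shallow libraries and -0.177 to 0.0623 without 1 library, Fabp5 -0.33 to 0.11 and Slc27a4 -0.49 to 0.14. The causes were not tested. Shallow rat libraries limit members at under 10 reads, and a missed threshold there does not show equal levels.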

Other observations

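Outside the comparisons, the 3 month old ZFR with vehicle and the 5.5 month old ZFR can only be set side by side, since their tables were normalized separately. Fabp7 was 26.8 to 42.3 normalized counts in the former and 7.06 to 35.8 in the latter, and Cd36 was 205.8 to 286.7 and 223.2 to 375.6. Slc27a1 and Slc27a2 values went together over the 13 WT/Floxed livers (Pearson r = 0.933 across livers after group means were removed). This was the highest r of any pair of members there. It was 0.857 over the 8 KO livers, -0.525 over the 8 ZFR and ZLR livers and -0.618 over the 8 BT2 and vehicle livers. Slc27a1 rested on about 4 and 5 reads in ZLR replicates 3 and 4. The livers share tables and runs, and no test was made.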
